A study of Rattus norvegicus with 69 samples.

Results

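Peroxiredoxins, catalase and superoxide dismutases are the enzymes that take superoxide and hydrogen peroxide out of a cell, and 9 rat genes that encode them (Prdx1, Prdx2, Prdx3, Prdx4, Prdx5, Prdx6, Cat, Sod1 and Sod2) were followed in whole blood. A gene was measured where the array held a probe set annotated to that gene symbol alone. This left 7 of the 9 genes (Prdx2, Prdx3, Prdx5, Prdx6, Cat, Sod1 and Sod2), each with 1 probe set, of 14557 genes measured in this way. The only probe set naming Prdx1 carried 2 symbols and no probe set was listed for Prdx4, so these genes have no values here.

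The blood came from male Sprague-Dawley rats, bought at 9 weeks of age, that breathed the particles and gases emitted by a laser printer (printer-emitted particles, PEPs) or HEPA-filtered air for 5 h a day in whole-body chambers. RNA was profiled on 69 arrays in 14 groups. There were 5 arrays a group for PEPs and for filtered air after 1, 5, 9 and 13 days, 5 exposed and 4 air arrays after 17 days, 6 and 6 after 21 days, and 4 and 4 from further rats at 21 days that carried a radiotelemetry implant. The labels name no altered allele and no other treatment of the living rats, and give no age at blood collection beyond that at purchase. The exposure experiment was carried out more than once, and the labels do not say which array came from which run, so run and group cannot be told apart here.

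Superoxide dismutases convert superoxide into hydrogen peroxide and oxygen. Catalase, a heme enzyme, splits hydrogen peroxide without a thiol partner, while peroxiredoxins reduce it through a reactive cysteine that is then restored, in most of the family by thioredoxin. In blood, catalase and Prdx2 are known as abundant proteins of the red cell, and Sod2 as a mitochondrial enzyme whose gene is induced by inflammatory signals.

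The values were log2 intensities, normalized over all arrays by the authors. The array medians lay between 2.44 and 2.78. Blood was recognised by its defining genes. The erythroid markers Slc4a1, Ahsp and Epb42, the neutrophil markers S100a8, S100a9 and Csf3r, the platelet markers Ppbp and Pf4 and the lymphocyte and monocyte markers Cd3e, Cd3d, Ms4a1 and Cd14 exceeded the array median on 69 of 69 arrays, whereas the lung markers Sftpc, Sftpb and Scgb1a1 did so on 4, 1 and 0. A further lung marker, Ager, did so on 57 of 69 arrays, with a mean of 2.95. The model gave 4 arrays a weight under 0.5, among them air day 1 replicate 2 at 0.229. No source says in so many words that each array is a separate rat, so the p-values measure the spread between these arrays. In a whole-blood sample, fewer cells of a type and less RNA per cell cannot be told apart.

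Promoter sequences were taken from RefSeq (assembly GRCr8), which listed one for 8 of the 9 genes and none for Prdx6. Those of Prdx3, Cat and Sod2 are shown because they carry the letters of motifs known for redox and inflammatory control or, in Cat, an unusual number of CCAAT boxes. They were chosen after the motif search, and the promoter of the unmeasured Prdx1 also held an antioxidant response element. Each is the 250 bases before the annotated start, 5′ to 3′ on the gene's own minus strand, at chr1:270000112-270000361 for Prdx3, chr3:110329527-110329776 for Cat and chr1:50050169-50050418 for Sod2. Capitals mark every match, on either strand, to 5 motifs, namely the GC box, the CCAAT box, the antioxidant response element, the GATA motif and the kappa B motif. No matches overlapped.
Prdx3: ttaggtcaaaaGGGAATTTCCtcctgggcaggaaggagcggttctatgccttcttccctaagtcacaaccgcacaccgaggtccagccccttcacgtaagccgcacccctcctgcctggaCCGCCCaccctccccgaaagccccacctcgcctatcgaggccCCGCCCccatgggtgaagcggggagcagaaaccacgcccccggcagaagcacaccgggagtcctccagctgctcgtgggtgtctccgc
Cat: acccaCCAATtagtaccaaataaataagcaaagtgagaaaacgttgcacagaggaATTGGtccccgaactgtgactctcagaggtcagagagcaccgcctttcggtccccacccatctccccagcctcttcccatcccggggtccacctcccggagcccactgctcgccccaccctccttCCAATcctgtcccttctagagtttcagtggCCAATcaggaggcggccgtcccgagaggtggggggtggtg
Sod2: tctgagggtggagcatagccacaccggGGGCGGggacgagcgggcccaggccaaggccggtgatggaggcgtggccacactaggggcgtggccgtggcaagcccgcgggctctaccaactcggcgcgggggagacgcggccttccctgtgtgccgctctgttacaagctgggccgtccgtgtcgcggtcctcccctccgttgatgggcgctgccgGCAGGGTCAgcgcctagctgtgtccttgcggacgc

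The Cat promoter held 4 CCAAT boxes, at 245, 195, 70 and 40 bases before the start, the one at 195 on the opposite strand. A CCAAT box occurred in 34% of 33469 rat promoters of the same length, and 4 or more in 0.565%. The Prdx3 promoter held 1 kappa B match and 2 GC boxes, whose letters are GGGCGG, and these motifs occurred in 1.3% and 30.5% of promoters. The Sod2 promoter held 1 GC box and, 35 bases before the start, 1 antioxidant response element (TGACNNNGC), which occurred in 10.1% of promoters. The GATA letters AGATAA, which occurred in 10.3% of all promoters, were in none of the 8 promoters found. A match describes the letters only. The GC content was 64.8% for Prdx3, 58.8% for Cat and 71.6% for Sod2, against a median of 51.2% over all promoters.

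Each gene's level was described over the 14 groups without setting one probe set against another. Sod1, the cytosolic copper and zinc enzyme, averaged 5.74 on the log2 scale over the 69 arrays (4.74 to 6.35), with group means from 5.35 in air day 17 to 6.02 in exposed rats with the implant. Sod2 averaged 9.57 (5.24 to 10.54), with group means from 8.61 in air day 1 to 10.11 in air day 17. Sod2 was the most variable of the 7 genes across arrays (SD 0.77), and its variance exceeded that of 97.1% of 350 probe sets of like mean.

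Cat varied least, with a mean of 12.57, a range of 12.10 to 12.96 and an SD of 0.16. Its lowest group was air with the implant (12.30) and its highest air day 9 (12.72). Prdx2, the cytosolic peroxiredoxin of red cells, averaged 11.82 (11.28 to 12.35, SD 0.22). Its group means ran from 11.62 in exposed day 21 to 12.10 in air with the implant. Both varied little in absolute terms and lay under the variance minimum of 0.05 used for testing (0.0479 for Prdx2 and 0.0258 for Cat), yet their variance exceeded that of 67.1% and 76.4% of probe sets of like mean.

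Prdx3, the peroxiredoxin confined to mitochondria, averaged 6.82 (6.09 to 7.64) with group means from 6.60 in exposed day 21 to 7.11 in exposed day 5. Prdx5, found in mitochondria, peroxisomes and cytosol, averaged 5.88 (4.58 to 6.55) with group means from 5.60 in air day 21 to 6.22 in exposed day 17. Prdx6, which draws on glutathione and also has phospholipase activity, averaged 6.08 (4.40 to 7.20) with group means from 5.71 in air with the implant to 6.65 in exposed day 5. When the 14 group means of a gene were put in order, neighbours lay within the larger of their SDs in every case for 6 genes. The exception was 1 step of Cat, from exposed rats with the implant to exposed day 17 (0.19). The plot of the 7 genes by group shows these values array by array.

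**Figure D1:**
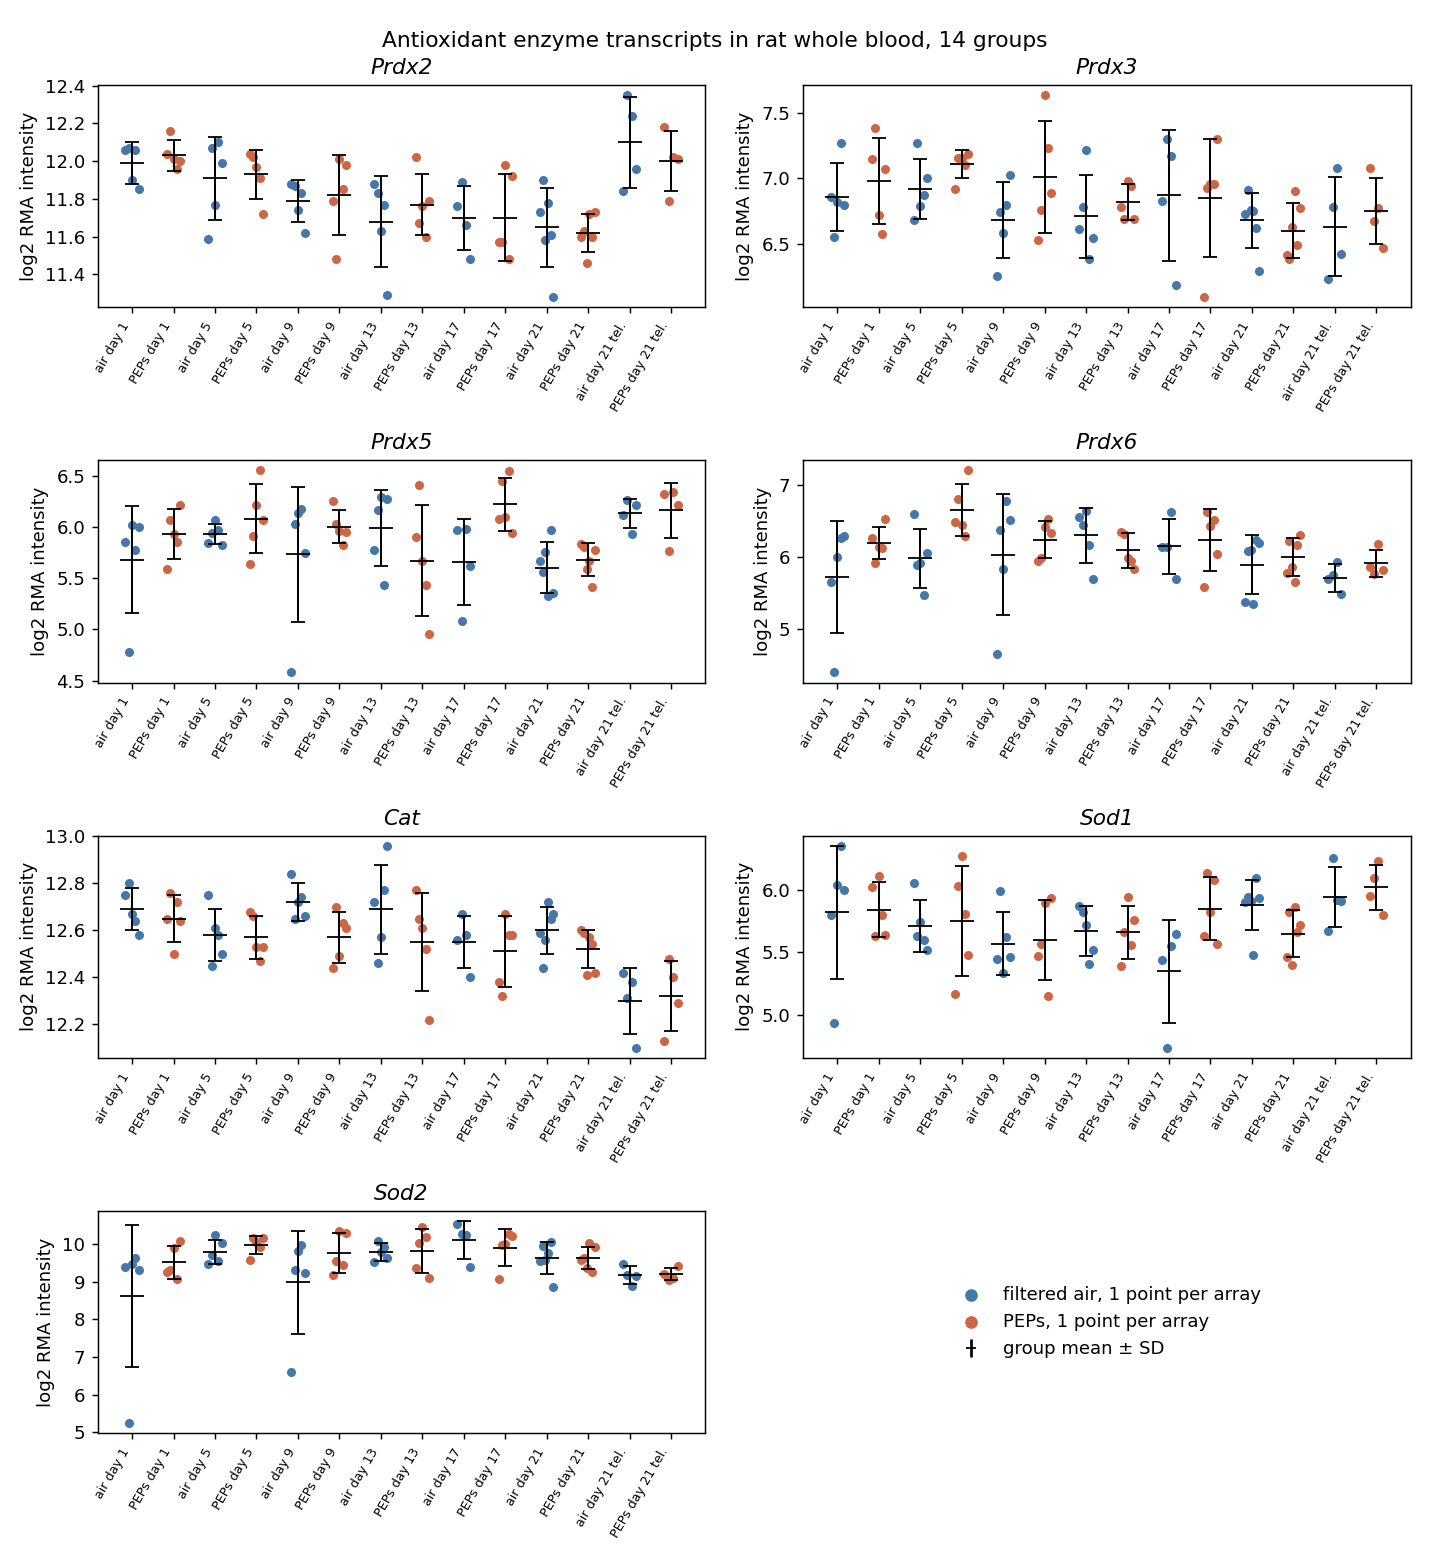
Log2 intensity of the 7 measured genes on each of the 69 arrays, by group, with group means. Sod2 falls to 5.24 and 6.60 on 2 air arrays while Cat stays between 12.10 and 12.96 throughout.

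Before the comparisons, 2 filtered-air arrays stood apart for several of these genes. On air day 1 replicate 2, Sod2 was 5.24 against 9.31 to 9.64 on the other 4 arrays, Prdx6 was 4.40 against 5.65 to 6.29, Prdx5 was 4.78 against 5.77 to 6.02 and Sod1 was 4.94 against 5.80 to 6.35. On air day 9 replicate 1, Sod2 was 6.60 against 9.22 to 9.97, Prdx6 was 4.66 against 5.84 to 6.77 and Prdx5 was 4.58 against 5.74 to 6.17. Prdx2 and Cat were not low there, with 12.07 and 12.80 on the first array and 11.88 and 12.84 on the other.

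The platelet list was also low on these arrays. Its mean was 5.80 on air day 1 replicate 2, where the group median was 9.56, and 7.76 on air day 9 replicate 1, where it was 10.37. The neutrophil list averaged 3.95 and 4.98, the monocyte list 4.58 and 5.33, the B cell list 6.74 and 7.20 and the natural killer and cytotoxic list 4.69 and 4.75, each the lowest of its group. The T cell list was the lowest of its group on the first array (7.35) and the highest on the other (8.15). The proliferating cell list was the highest of its group on the first array (5.86) and lay inside its group on the other (5.22). The erythroid list was not low. It was 9.74 among 9.57 to 9.95 on the first array, and at 9.65 the highest of its group on the other. Measures of array background were the highest of their groups, with a lower quartile of 1.80 and 1.64 and a mean over olfactory receptor probe sets of 1.91 and 1.88. The part of these cell markers and of the array background in the low values was not tested.

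Without these 2 arrays the SD of Sod2 was 0.42 over 67 arrays, above 91% of 321 probe sets of like mean in variance. Its air day 1 mean was then 9.45, and its lowest group was air with the implant at 9.17. The SD became 0.37 for Prdx6, 0.32 for Prdx5 and 0.29 for Sod1, and the highest group mean of Sod1 became that of air day 1 at 6.05. For Cat the highest group became air day 13 (12.69), beside air day 9 at 12.69.

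The first question of the design was whether inhaled PEPs changed blood transcripts against filtered air of the same day. None of the 7 genes was called in any of the 7 single comparisons (6 days, and day 21 with the implant), by limma with Benjamini-Hochberg adjustment over all probe sets. Of the 49 tests, 3 had an unadjusted p under 0.05, and the smallest adjusted p was 0.661. The differences ran from -0.39 to 0.65 on the log2 scale, 33 of them higher in exposed rats. The 2 air arrays that stood apart enter this count, which was not taken without them. The 95% intervals reached at most from -0.88 to 1.25, which leaves room for a 2.38-fold difference in the widest. Over all probe sets the percent called was 0 on days 1, 5, 17 and 21 and 0.00585 on day 9, on day 13 and with the implant (0.00545 with all probe sets kept, as used for Prdx2 and Cat), so few calls were made for any gene in these comparisons. No gene's exposed arrays lay clear of its air arrays in any comparison. Exposed arrays lay wholly above air arrays for 0.458, 0.518, 0.72, 0.466, 0.556 and 0.0927 percent of probe sets on days 1, 5, 9, 13, 17 and 21 and for 1.37 percent with the implant, and wholly below for 0.256, 0.406, 0.635, 0.553, 0.632, 0.0845 and 1.38 percent in the same order.

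The largest difference was that of Prdx6 on day 5. It measured 6.60, 5.89, 5.91, 5.47 and 6.05 in air and 6.49, 6.81, 6.45, 6.29 and 7.20 in exposed rats. All 5 exposed arrays exceeded 4 of the air arrays, and air replicate 1 lay among them. The difference was 0.65 ± 0.26 (SE, limma), 1.57-fold, with an unadjusted p of 0.0132 and an adjusted p of 0.761. The platelet list moved with it, from 9.94 to 10.36 in air and from 10.19 to 11.02 in exposed rats, with 9 of 9 markers higher and 0 called, and its part in the difference was not tested.

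On day 17 Prdx5 measured 5.97, 5.08, 5.98 and 5.62 in air and 6.08, 6.45, 6.10, 6.54 and 5.94 in exposed rats. Sod1 measured 5.44, 4.74, 5.55 and 5.65 in air and 5.63, 6.13, 5.82, 6.08 and 5.57 in exposed rats. Air replicate 2 was the lowest array for both genes, and for both the groups overlapped. The differences were 0.51 ± 0.21 for Prdx5 (unadjusted p = 0.0203, adjusted p = 1, limma) and 0.45 ± 0.17 for Sod1 (unadjusted p = 0.011, adjusted p = 0.931, limma), and 0.37 and 0.32 without air replicate 2.

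Prdx5 had the opposite sign on day 13, with 5.77, 6.16, 6.29, 5.43 and 6.27 in air and 5.90, 6.41, 5.67, 5.43 and 4.95 in exposed rats. The exposed arrays spread on both sides of the air arrays. The difference was -0.39 ± 0.20 (unadjusted p = 0.0534, adjusted p = 0.661, limma), and it was -0.22 without exposed replicate 5 and -0.61 without exposed replicate 2.

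On the remaining days the gene with the smallest p did not reach 0.05. On day 1 Prdx6 differed by 0.20 ± 0.26 (adjusted p = 0.934), on day 9 Sod2 by 0.56 ± 0.35 (adjusted p = 0.794), on day 21 Sod1 by -0.22 ± 0.13 (adjusted p = 1) and with the implant Prdx2 by -0.11 ± 0.12 (adjusted p = 1, all limma). The day 1 difference of Prdx6 was 0.12 without air day 1 replicate 2, 0.10 without air day 1 replicate 1, 0.32 without air day 1 replicate 5 and 0.47 without array weights. The day 9 difference of Sod2 was 0.20 without air day 9 replicate 1.

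Averaged over the 6 days, 6 of the 7 genes were higher in exposed rats by limma. None was called, none had an unadjusted p under 0.05, and the percent called over all probe sets was 0. The 2 air arrays that stood apart enter this count too, and it was not taken without them. Without these arrays the mean of Prdx6 was 6.05 in air and 6.19 in exposed rats on day 1, and 6.37 and 6.24 on day 9. The estimates for the 7 genes over the 6 days lay between -0.07 and 0.15, and the 95% intervals between -0.14 and 0.42. A difference beyond 1.34-fold lay outside all of these intervals. They hold for the fit with array weights and for each gene taken alone, with no adjustment for the number of genes. Prdx6 gave 0.15 ± 0.10 (adjusted p = 0.871) and Cat -0.07 ± 0.04 (adjusted p = 0.827). In the same average 9 of 9 platelet markers were higher, by a median of 0.23, against a median of 0.00 over all probe sets. Of these markers 5 had an unadjusted p under 0.05 and 0 were called. Both air arrays with a low platelet list enter this average, which was not taken without them. The median of the platelet list was 9.56 in air and 10.31 in exposed rats on day 1, and 10.37 and 10.3 on day 9. Whether the difference varied between the days was tested as well, and the smallest p among the genes tested was that of Sod1 (F = 2.12, unadjusted p = 0.0762, adjusted p = 0.748, limma).

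The genes that work beside these enzymes gave no calls either. In the mean over the 6 days, limma called 0 of 10 tested genes of the thioredoxin and glutaredoxin system, 0 of 16 of glutathione and NADPH supply, 0 of 6 superoxide sources and dismutase partners and 0 of 8 Nrf2 regulators and targets, with 1, 1, 0 and 1 at an unadjusted p under 0.05. The smallest p among them was that of Sesn2, a stress-induced sestrin, at -0.28 ± 0.10 (unadjusted p = 0.00511, adjusted p = 0.727).

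**Figure D2:**
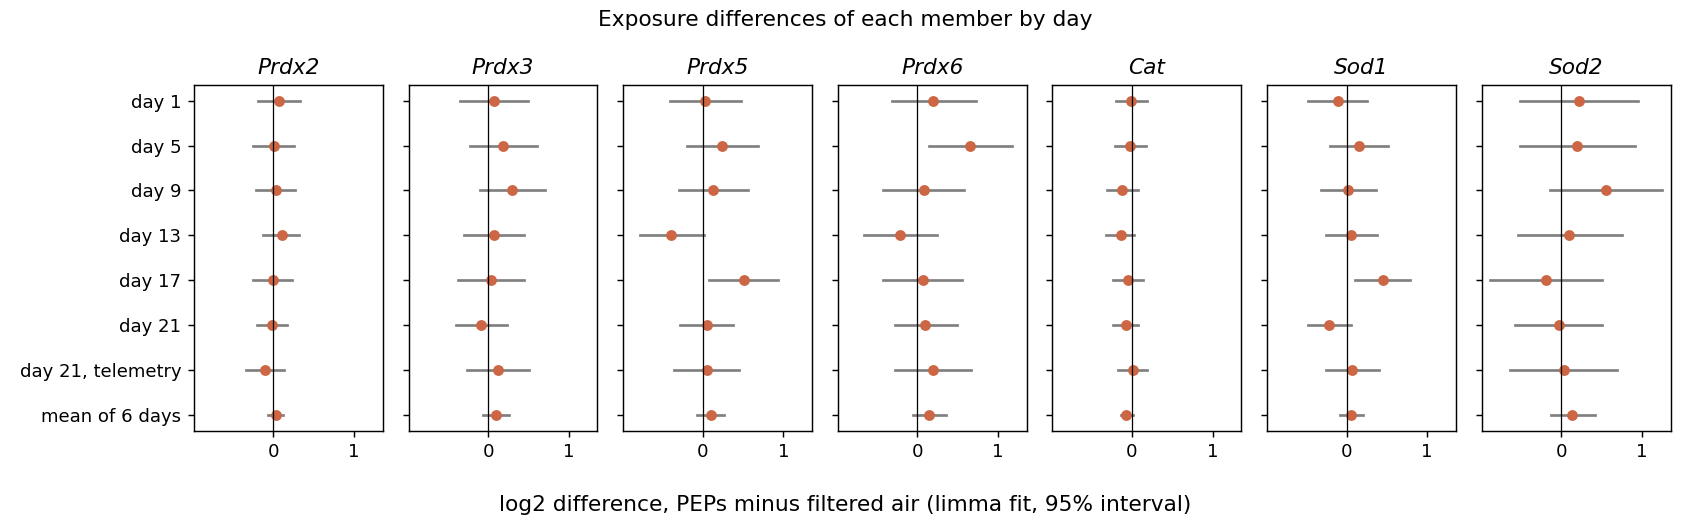
Log2 difference of exposed from filtered-air arrays for the 7 genes, with 95% intervals. Each of the 7 comparisons and the mean of 6 days is shown. Estimates lie between -0.39 and 0.65, with Prdx6 on day 5 the highest.

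The series also held a course over 6 days in each arm, which follows age and handling as well as exposure. Calls were made for 1.81 percent of probe sets in air, 4.71 percent in exposed rats and 12.8 percent in the mean of both arms. Of the 5 genes tested beside them, limma called 0 in each, and 1 in each had an unadjusted p under 0.05. Prdx2 and Cat were tested with all probe sets kept, where the percent called was 1.94, 5.05 and 13.6.

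Prdx2 fell over the course. On day 1 it measured 12.06, 12.07, 11.90, 12.06 and 11.85 in air and 12.04, 12.16, 12.01, 11.96 and 12.00 in exposed rats. On day 21 its lowest, median and highest values were 11.28, 11.67 and 11.90 in air and 11.46, 11.62 and 11.73 in exposed rats. In exposed rats every day 21 array lay below every day 1 array, which held for 2.52 percent of probe sets, and in air, where 1.64 percent of probe sets did so, the days overlapped.

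The group means of Prdx2 were 11.99, 11.91, 11.79, 11.68, 11.70 and 11.65 over the 6 days in air and 12.03, 11.93, 11.82, 11.77, 11.70 and 11.62 in exposed rats. Day 21 differed from day 1 by -0.33 ± 0.11 in air, -0.42 ± 0.11 in exposed rats and -0.37 ± 0.08 in the mean of both arms. The course was called in the mean of both arms (F = 6.37, adjusted p = 0.00267, limma) and not in air (adjusted p = 0.194) or exposed rats alone (adjusted p = 0.0853).

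The erythroid list, which includes the red cell membrane gene Epb42 and the erythroid factor Klf1, fell beside Prdx2. Its mean was 9.73 on day 1 and 9.25 on day 21 in air, and 9.81 and 9.15 in exposed rats, and 7 of its 10 tested genes were called in the mean of both arms. With the mean of that list as a covariate the range of Prdx2 over the days was 0.15 with an adjusted p of 0.759 (limma). The course was no longer called with cyclic loess normalization (0.24, adjusted p = 0.142) or with the lower quartile of each array as a covariate (0.32, adjusted p = 0.201).

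The remaining genes showed no course past the threshold in the main fit. Cat had an adjusted p of 0.438 in the mean of both arms (limma). The smallest unadjusted p-values were those of Sod1 in air (range 0.57, unadjusted p = 0.0207, adjusted p = 0.209) and of Prdx5 in exposed rats (range 0.58, unadjusted p = 0.013, adjusted p = 0.121). Prdx5 in exposed rats was called without exposed day 13 replicate 2 (range 0.79, adjusted p = 0.0256). In the mean of both arms Prdx5 was called with cyclic loess (range 0.56, adjusted p = 0.0254, limma).

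Some genes of glutathione and NADPH supply were called in the course. The adjusted p-values here and in the next paragraph are those of the F-test over the 6 days. That test asks for any difference among the days, not for day 21 against day 1. Whether these calls hold under the alternative settings was not tested. Gpx1, the main glutathione peroxidase of red cells, fell from 10.54 on day 1 to 10.01 on day 21 in air (adjusted p = 0.04) and from 10.58 to 9.77 in exposed rats (adjusted p = 0.00204). Gclm, the modifier subunit of the first enzyme of glutathione synthesis, fell from 10.68 to 9.91 (adjusted p = 0.005) and from 10.66 to 9.70 (adjusted p = 0.000189). Taldo1, a transaldolase of the pentose phosphate pathway, fell from 8.59 to 8.08 (adjusted p = 0.0295) and from 8.58 to 7.92 (adjusted p = 0.00232, all limma F-tests).

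In the thioredoxin list, Txn1, which restores oxidised peroxiredoxins, fell in air from 10.58 to 9.88 (adjusted p = 0.00352, limma F-test). In exposed rats the mean of Txn1 went from 10.5 to 10.03. Txnip, which binds and inhibits thioredoxin, rose in exposed rats from 9.41 to 10.12 (adjusted p = 0.000748, limma F-test). In air the mean of Txnip went from 9.69 to 10.11. In the mean of both arms 3 of 10 genes of the thioredoxin list, 6 of 16 of glutathione and NADPH supply, 2 of 6 superoxide sources and partners and 0 of 8 Nrf2 genes were called (3 at an unadjusted p under 0.05). The genes called were Txn1, Txnrd1 and Txnip, then Gpx1, Gclm, Taldo1, Idh2, Gsto1 and Mgst3, then Cyba and Rac2, the last pair being parts of the phagocyte NADPH oxidase. Of these, Gpx1, Gclm, Taldo1, Txn1 and Mgst3 had lower means on day 21 than on day 1 in both arms. Txnrd1, Txnip, Idh2, Gsto1, Cyba and Rac2 had higher means on day 21 in both arms. The same erythroid list fell over these days, and its part in these courses was not tested. The plot of Prdx2 and Cat over the days shows both array by array.

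**Figure D3:**
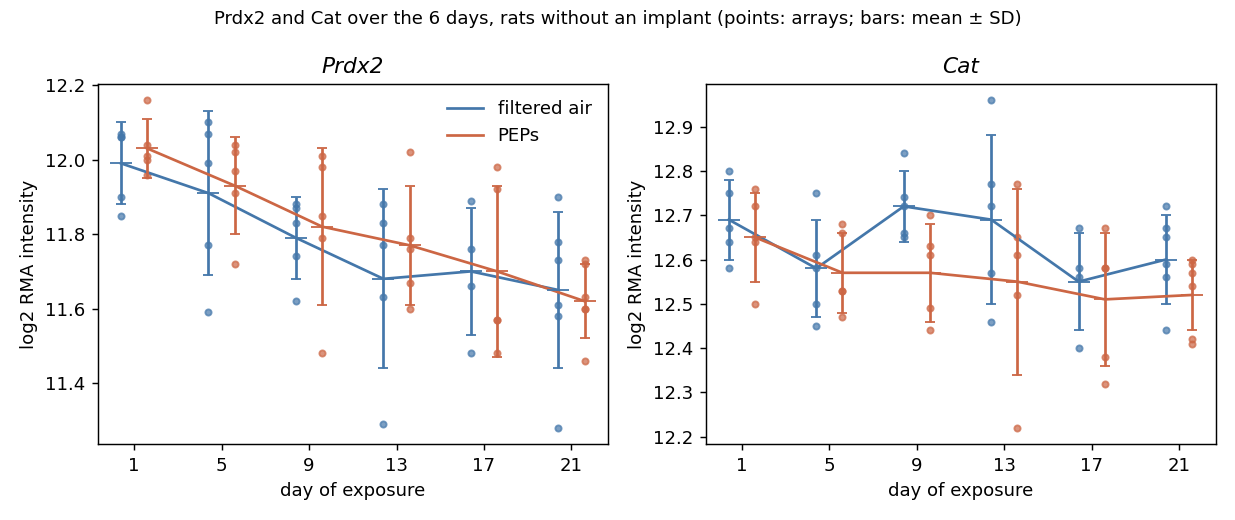
Log2 intensity of Prdx2 and Cat on each array from rats without an implant, by day and arm, with group means. Prdx2 goes from 11.99 to 11.65 in air and from 12.03 to 11.62 in exposed rats.

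On day 21 the rats with a radiotelemetry implant could be set against those without, in each arm. The percent called was 0.468 in air, 1.22 in exposed rats and 3.32 in the mean of both arms, a contrast added after both arms had been seen to move alike. Of the 5 genes tested there, limma called 0, 0 and 1, and 1, 2 and 3 had an unadjusted p under 0.05. For Prdx2 and Cat, tested with all probe sets kept, the percent called was 0.458, 1.19 and 3.34. Implanted and plain rats may also have belonged to different runs of the exposure, and implant and run cannot be told apart.

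Prdx2 was higher with the implant. In air its lowest, median and highest values without implant were 11.28, 11.67 and 11.90, and with implant it measured 11.84, 12.35, 12.24 and 11.96. In exposed rats it measured 11.46, 11.62 and 11.73 without, in the same order, and 12.18, 11.79, 12.02 and 12.01 with implant. Of the 8 implant arrays, 6 exceeded the highest of the 12 others. In exposed rats the groups did not overlap, which held for 1.55 percent of probe sets in this direction, and in air, where it held for 0.987 percent, 1 implant array lay inside the other group. The differences were 0.48 ± 0.11 in air (adjusted p = 0.0185), 0.39 ± 0.11 in exposed rats (adjusted p = 0.0389) and 0.44 ± 0.08 in the mean, 1.35-fold (adjusted p = 0.000104, all limma).

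The calls of Prdx2 within a single arm were not stable. That in air was lost without array weights (adjusted p = 0.168), with only the compared arrays in the fit (0.396) and without air day 21 replicate 6 (0.0716) or implant air replicate 2 (0.207) or 3 (0.113). That in exposed rats was lost on leaving out any of 7 of the 10 arrays, with adjusted p-values up to 0.24, and also without array weights (0.275) and with only the compared arrays in the fit (0.187, all limma).

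Cat was lower with the implant. In air its lowest, median and highest values without implant were 12.44, 12.62 and 12.72, and with implant it measured 12.42, 12.31, 12.38 and 12.10. In exposed rats it measured 12.41, 12.56 and 12.60 without and 12.13, 12.48, 12.40 and 12.29 with implant. All 4 implant arrays in air lay below the others, as did 1.11 percent of probe sets, while in exposed rats, where 1.68 percent did so, 1 of the 4 lay inside the other group. The difference was -0.31 ± 0.08 in air (adjusted p = 0.081), -0.22 ± 0.08 in exposed rats (adjusted p = 0.205) and -0.26 ± 0.06 in the mean, 1.20-fold lower (adjusted p = 0.00343, all limma). In the mean of both arms, Prdx2 and Cat kept their calls and opposite signs in 9 of 9 alternative settings and on leaving out any of the 20 arrays. Some of these settings left out only arrays of earlier days, which are not part of this difference.

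Prdx5 was higher with the implant in the mean of both arms. Its lowest, median and highest values without implant were 5.33, 5.62 and 5.97 in air and 5.41, 5.72 and 5.83 in exposed rats. With implant it measured 6.12, 6.26, 5.93 and 6.21 in air and 6.32, 5.76, 6.34 and 6.21 in exposed rats. One implant array in each arm lay inside the range of the other group. The difference was 0.52 ± 0.19 in air (adjusted p = 0.27), 0.51 ± 0.18 in exposed rats (adjusted p = 0.171) and 0.51 ± 0.13 in the mean, 1.43-fold (adjusted p = 0.0135, all limma). The call in the mean was lost without array weights (adjusted p = 0.135).

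Of the other genes, Sod1 differed by 0.22 ± 0.11 in the mean (unadjusted p = 0.0379, adjusted p = 0.302) and by 0.37 ± 0.15 in exposed rats (unadjusted p = 0.0157, adjusted p = 0.256). Sod2 differed by -0.45 ± 0.21 in the mean (unadjusted p = 0.0385, adjusted p = 0.304, all limma). Prdx3 (0.08 ± 0.12) and Prdx6 (-0.13 ± 0.15) did not reach an unadjusted p under 0.05. No gene was called for an exposure difference that changed with the implant, where the percent called was 0, and the smallest p was that of Sod1 (0.28 ± 0.21, adjusted p = 0.985, limma).

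**Figure D4:**
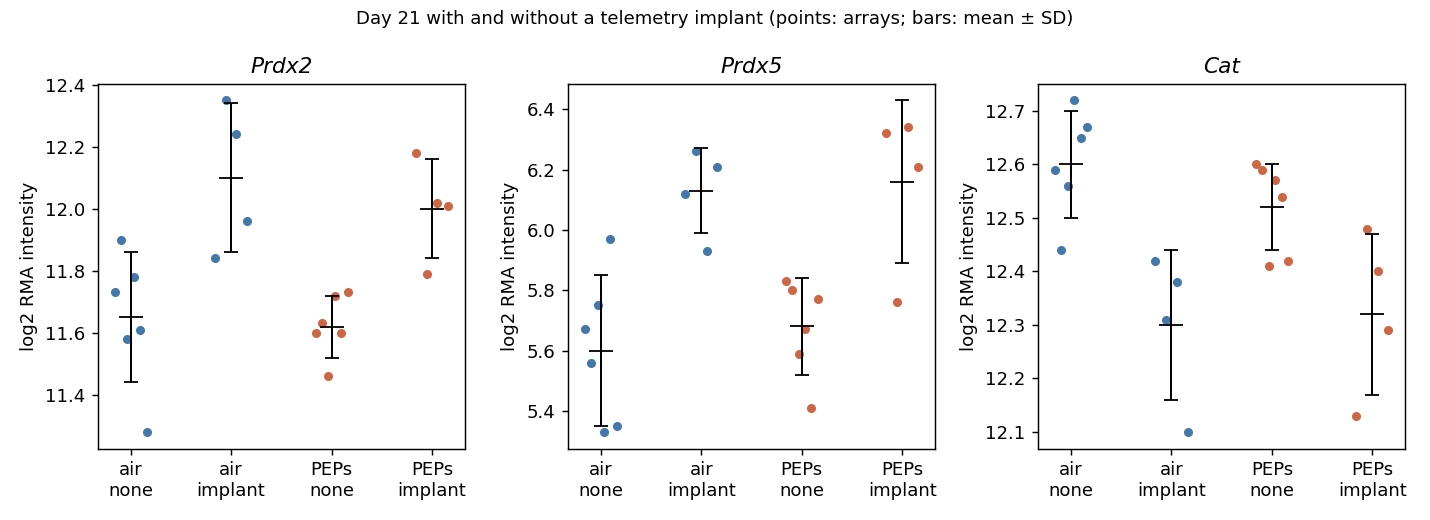
Log2 intensity on day 21 with and without the radiotelemetry implant for Prdx2, Prdx5 and Cat in each arm, 1 point an array. Prdx2 and Prdx5 lie higher and Cat lower with the implant, with 6 of 8 implant arrays outside the range of the 12 others for each of the 3 genes.

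Blood cell markers also differed with the implant. In the mean of both arms 12 of 12 monocyte markers were higher (median 0.50, 6 called), and the list mean ran from 6.89 to 7.65 with and from 6.32 to 7.26 without implant. Of 10 natural killer and cytotoxic markers 7 were called, with a median of 0.77 and list means from 5.69 to 6.70 against 4.99 to 5.82. T cell markers were lower (median -0.33, 8 of 14 called), with list means from 7.52 to 7.96 against 7.80 to 8.26. All 10 erythroid markers were higher, by a median of 0.25 with 1 called (Hemgn), and their mean ran from 9.07 to 9.68 against 8.96 to 9.54. All 5 proliferating cell markers were higher too (median 0.34, Tyms called), with list means from 4.95 to 5.55 against 4.67 to 5.23. Of 9 platelet markers 7 were lower (median -0.18, Ppbp called), with list means from 9.78 to 10.25 against 9.87 to 10.62. No marker list was tested as the source of the differences in Prdx5 and Cat, apart from the erythroid mean as a covariate, which left both calls in place. With that covariate the difference of Prdx2 in exposed rats was 0.24 and no longer called (adjusted p = 0.219, limma). Its calls in air and in the mean of both arms were kept with the same covariate.

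The glutathione list was the one with most calls beside these genes, with 7 of 16 called in the mean of both arms, 5 higher and 2 lower. Gpx1 was higher by 0.47 ± 0.10 (adjusted p = 0.00283), and Gclm by 0.38, Taldo1 by 0.31, Tkt by 0.29 and Mgst1 by 0.53. Gpx3, the secreted plasma glutathione peroxidase, was lower by a difference of -0.98 ± 0.28 (adjusted p = 0.0366) and Gstp1, a glutathione transferase, by -0.56 ± 0.14 (adjusted p = 0.0144). In exposed rats Nqo1, a quinone reductase and Nrf2 target, was higher by 0.89 ± 0.23 (adjusted p = 0.0307, all limma). In air limma called no gene of the 4 lists, with 3, 2, 1 and 0 at an unadjusted p under 0.05.

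The 7 genes were last compared with each other and with blood cell marker lists over the 69 arrays, after each group's mean had been taken away. Pearson and Spearman coefficients were tested by permuting arrays within groups (100000 draws, smallest possible p 1e-05), with Benjamini-Hochberg adjustment over 98 relations. Of the 98, 22 passed by both coefficients, and 8 did so without the 2 air arrays that stood apart.

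Sod2 and Prdx6 followed the platelet list. Sod2 gave r = 0.90 and rho = 0.65 (permutation adjusted p = 0.000245 for both), and r = 0.53 without the 2 arrays, which were also the farthest on the platelet axis. Prdx6 gave r = 0.77 and rho = 0.66 (permutation adjusted p = 0.000245 for both), and r = 0.61 without them. Prdx5 gave r = 0.64 and rho = 0.48 (permutation adjusted p = 0.00811 and 0.0169), but r = 0.31 without them (permutation adjusted p = 0.205), so its relation rested on those arrays.

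Prdx2 and Prdx3 followed the erythroid list. Prdx2 gave r = 0.63 and rho = 0.71 (permutation adjusted p = 0.000245 for both), with r = 0.62 without the 2 arrays farthest on that axis. Prdx3 gave r = 0.60 and rho = 0.51 (permutation adjusted p = 0.00098 and 0.00278), with r = 0.55 without the 2 farthest. Cat gave r = 0.36 and rho = 0.34 (permutation adjusted p = 0.0311 and 0.0501), so that it passed by one coefficient only. Neither Prdx2 nor Prdx3 followed the erythroid list alone. Prdx2 also passed by both coefficients with the proliferating cell list (r = 0.55, rho = 0.56) and, in the opposite direction, with the T cell list (r = -0.51, rho = -0.53) and the monocyte list (r = -0.29, rho = -0.33). Prdx3 also passed with the platelet list (r = 0.37, rho = 0.37) and the proliferating cell list (r = 0.39, rho = 0.34). Without the 2 air arrays, the relations of Prdx2 to the T cell and proliferating cell lists and of Prdx3 to the proliferating cell list still passed by both coefficients.

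The other relations that passed by both coefficients did so with those 2 arrays only. Prdx5 passed with the neutrophil (r = 0.47) and monocyte lists (r = 0.58), Sod1 with the neutrophil list (r = 0.48) and the lower quartile of the array (r = -0.50), and Sod2 with the natural killer list (r = 0.46) and the olfactory receptor mean (r = -0.54).

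Among the 21 pairs of genes, 12 had a positive r and 6 passed by both coefficients. These were Prdx6 with Sod2 (r = 0.64), Prdx5 with Sod2 (0.63), Prdx2 with Prdx3 (0.44), Prdx3 with Sod2 (0.43), Prdx6 with Sod1 (0.43) and Prdx3 with Prdx6 (0.40). Without the 2 air arrays, Prdx2 with Prdx3 alone passed by both (r = 0.49, permutation adjusted p = 0.00625 and 0.0102).

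**Figure D5:**
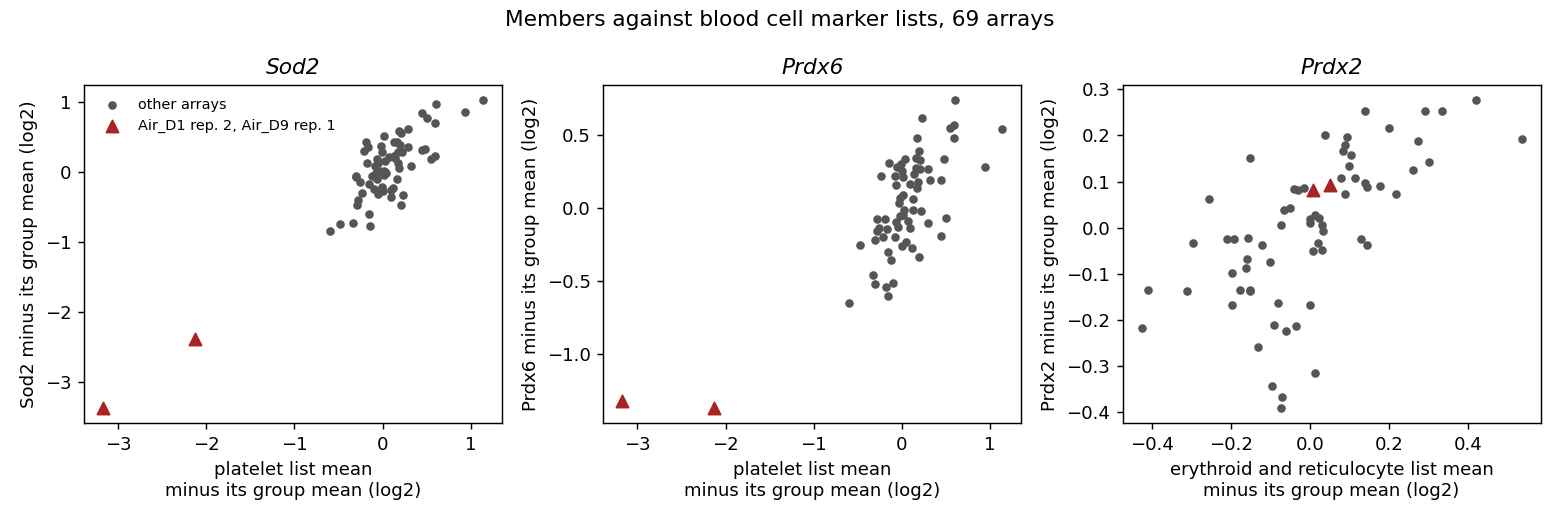
Group-centred log2 levels of Sod2 and Prdx6 against the platelet list mean and of Prdx2 against the erythroid list mean, 1 point an array. The 2 air arrays that stood apart lie far to the lower left in the platelet panels and inside the cloud in the erythroid panel.

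The genes with the most similar pattern were taken by Pearson's r over the same 69 group-centred arrays, as a description. For Sod2 they were Cd9 (r = 0.91), Hpse (0.89) and Actg1 (0.89), with r of 0.60, 0.53 and 0.52 without the 2 air arrays. For Prdx6 they were Rnasek (0.83, and 0.67 without those arrays), Ilk (0.80, and 0.61) and Smpdl3b (0.80, and 0.61). For Prdx5 they were Hopx (0.74, and 0.56 without them), Tagln2 (0.72, and 0.51) and Pla2g2a (0.72, and 0.53). For Prdx3 they were Ciao2a (0.75), Gadd45a (0.70) and Gypc (0.70), and for Prdx2 Marchf8 (0.66), Psmb6l1 (0.64) and Cnbp (0.63). Sod1 was nearest to Golga7 (0.64, and 0.52 without them), Ctsw (0.62, and 0.53) and C8h19orf38 (0.62, and 0.51), and Cat to Atosb (0.58), LOC100911718 (0.58) and Mxi1 (0.56). For Prdx2, Prdx3 and Cat the values without the 2 arrays differed by at most 0.03.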

How the data were processed

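Whole blood was kept in RNAlater. The labels give 400 ng of RNA per array, and labelled cDNA made from the RNA was hybridised to Affymetrix Rat Gene ST 2.1 arrays. The authors normalized the arrays together by RMA and deposited log2 values (oligo and limma in R 3.4, per the submitters' processing notes). The genome build behind the annotation is not given in the sources used here, and genes were named through the platform's probe set annotation. Of 36685 probe sets, 14824 carried 1 symbol, 829 several and 21032 none.

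The deposited log2 values were fitted with limma 3.58.1 in R 4.3.3 on the 34176 probe sets whose values over the 69 arrays had a variance of at least 0.05. The other 2509 (6.84%) were left out. The fit had 1 mean for each of 14 groups and gene-by-gene array weights, followed by eBayes. P-values were adjusted over all probe sets of a comparison by the Benjamini-Hochberg method, and a call was an adjusted p under 0.05. Prdx2 and Cat, under the variance minimum, are reported from the same fit over all probe sets, the alternative without the filter. Fits that left out an array kept the weights of the full fit. The other alternatives were no array weights, cyclic loess, another filter, covariates, a replicate block and fewer arrays. Full statistics are given for a gene whose unadjusted p was under 0.05 in a comparison, or else for the gene with the smallest p, and a few other values were added. The marker lists are summarised by their mean on each array. Array correlations lay between 0.8972 and 0.9743. The scripts were tested on simulated data. The number of arrays limits the precision.

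The genes, the pathway lists and the marker lists were chosen with earlier results of these data known. Whether the replicate numbers pair the arrays was checked on the 34 pairs of arrays of equal number in the air and exposed groups of a day: the correlation of their deviations from the group means lay between -0.08 and 0.25 and exceeded 0.1 in 1 pair, so the numbers were not taken as pairs. Relations and figures used Python 3.11.15 with scipy 1.17.1, pandas 2.3.3 and matplotlib 3.10.9.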

Additional observations from a re-analysis of the deposited data

Results flagged for a closer look

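Of 98 sets formed by a gene and a group of 4 to 6 arrays, 6 held an array far from the others by Dixon's criterion, and chance alone flags about 1 in 20 sets (4.9 here). On air day 1 replicate 2 Sod2 was 5.24 (others 9.31 to 9.64) and Prdx5 4.78 (5.77 to 6.02). On air day 9 replicate 1 Sod2 was 6.60 (9.22 to 9.97) and Prdx5 4.58 (5.74 to 6.17). On exposed day 17 replicate 1 Sod2 was 9.07 (9.97 to 10.27), and on air day 21 replicate 4 Sod1 was 5.48 (5.90 to 6.09). All 6 were the lowest array of their group.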

How the results depend on the processing

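In the exposure comparisons the number of genes called among those measured stayed at 0 under all 10 alternatives and on leaving out each array. In the course it moved as follows. In exposed rats it was 1 when probe sets were kept by a mean above the median, and 0 to 1 when arrays were left out. In the mean of both arms it was 2 with cyclic loess, Prdx5 among them, 1 without the variance filter and 1 with the mean filter. With the implant in air it was 1 without the variance filter and 2 with the mean filter, and in exposed rats 1 with either. In the mean of both arms it was 1, and became 3 without the variance filter, 3 with the mean filter, 0 without array weights and 0 with the replicate number as a replicate block, where Prdx5 had an adjusted p of 0.0533. Without the filter the added genes were Prdx2 and Cat, which are then tested. Elsewhere the cause was not tested. No value changed sign past the threshold.

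The replicate block also took the calls of Prdx2 within an arm (adjusted p = 0.0627 in air and 0.129 in exposed rats). Of the 34 pairs of arrays of equal number, 1 had a correlation over 0.1, and the median was 0.01. In 10 of the pairs the air array correlated best with its own number, and the share due to chance was not worked out. Cat in air with the implant became called with cyclic loess (adjusted p = 0.0187), the erythroid covariate (0.0379) and the mean filter (0.039), and without air day 21 replicate 2 (0.046). The relations passing by both coefficients were 22, 15 of 91 with the lower quartile regressed out and 8 without the 2 air arrays that stood apart, an alternative chosen after seeing the data.

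The number of probe sets called over the whole array depended on the settings. It was 618 in the air course (14 to 1286 over the alternatives), 1610 in the exposed course (7 to 2619) and 4358 in the mean of both arms (109 to 5365). With the implant it was 160 in air (1 to 193), 418 in exposed rats (70 to 735) and 1136 in the mean (381 to 1595). The mean of several probe sets could not be tried, since each gene had 1. Arrays of 4 to 6 a group and the unlabelled exposure runs limit every comparison.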
